A study of Mus musculus with 6 samples.

Results

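The genes described here encode subunits of the complexes that write, erase or read histone marks and that move nucleosomes. A list of 42 gene symbols was used: Polycomb, H3K9 methylation, Trithorax, demethylase, deacetylase and remodeller genes, and Rif1. A gene was counted as measured where a probe set carried its symbol alone, and the brightest such probe set stood for it, which gave 41 of the 42 members among 19938 genes. Suv39h1, an H3K9 methyltransferase, had no probe set under its symbol. Hdac1 and Eed each had a second, dimmer probe set.

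The RNA came from mouse embryonic stem cells of the line E14, grown in vitro on adherent plates and not described as altered in genotype. The 3 groups, with 2 arrays each, were cells given a pool of non-specific siRNAs (control), cells given siRNA 1 against p/CIP and cells given siRNA 2 against p/CIP. p/CIP, the product of Ncoa3, is a coactivator that nuclear receptors use to bring histone acetyltransferases to genes. The time after transfection and the origin of the replicates (separate cultures or not) are not given in the labels, so the p-values reflect the spread among these 6 arrays alone, and that spread may be technical. Values are log2 intensities with the log base inferred from their range, and changes are siRNA minus control on that scale.

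Ncoa3 stood at 12.33 and 12.28 in the control group and at 10.71 to 10.93 on the 4 knockdown arrays. This is 35.6% of control (95% interval 30.4 to 41.8%, limma adjusted p = 0.0287), so part of its transcript signal remained. The 10 stem cell markers, Pou5f1, Nanog and Sox2 among them, had mean levels of 10.1 to 13.7, against a median gene of 7.81. Above that median lay 0 of 5 mesoderm markers measured, 5 of 6 of neural ectoderm (highest Tubb3, 9.28), 4 of 6 of endoderm (Gata6, 9.72), 4 of 6 of trophoblast (Hand1, 9.29) and 3 of 7 of fibroblasts (Col1a1, 8.996). The array of siRNA 1 replicate 2 stood apart, with an interquartile range of 3.13 against 3.33 to 3.45 on the others. It also had the highest mean of the 6 endoderm markers among the knockdown arrays (8.33, lowest knockdown array 7.80, controls 7.68 and 7.99). The same array was the highest knockdown array for the mesoderm (7.33), trophoblast (8.36) and fibroblast (7.79) markers, but not for those of neural ectoderm. The mean of the 10 stem cell markers was 12.01 to 12.18 on knockdown arrays and 12.30 to 12.42 on controls. What part these movements had in the members' values was not tested.

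Polycomb proteins keep developmental genes silent in embryonic stem cells. Polycomb repressive complex 2 (PRC2) methylates lysine 27 of histone H3 and PRC1 ubiquitinates histone H2A, while Trithorax-type COMPASS complexes methylate lysine 4 at active and bivalent promoters. Methylation of lysine 9 silences retroviral elements and heterochromatin, deacetylases remove the acetyl groups that coactivators help to place, and ATP-driven remodellers slide or exchange nucleosomes.

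The promoter sequences of the 3 members with the smallest p are shown because each holds more CpG than the median window of all genes, as most of the members' windows do. Each runs 5′ to 3′ on the gene's strand from 250 bases before to 50 bases after the start site (RefSeq, GRCm38.p6), with CpG dinucleotides in capitals.
Phf19 (chr2:34913927-34914226, minus strand): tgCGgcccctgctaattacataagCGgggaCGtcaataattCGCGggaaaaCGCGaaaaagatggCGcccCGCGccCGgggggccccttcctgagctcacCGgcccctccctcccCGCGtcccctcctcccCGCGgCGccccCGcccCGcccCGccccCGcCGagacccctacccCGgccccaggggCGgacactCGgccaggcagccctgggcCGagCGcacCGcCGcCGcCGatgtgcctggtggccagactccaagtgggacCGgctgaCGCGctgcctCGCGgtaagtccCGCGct
Setdb1 (chr3:95357153-95357452, minus strand): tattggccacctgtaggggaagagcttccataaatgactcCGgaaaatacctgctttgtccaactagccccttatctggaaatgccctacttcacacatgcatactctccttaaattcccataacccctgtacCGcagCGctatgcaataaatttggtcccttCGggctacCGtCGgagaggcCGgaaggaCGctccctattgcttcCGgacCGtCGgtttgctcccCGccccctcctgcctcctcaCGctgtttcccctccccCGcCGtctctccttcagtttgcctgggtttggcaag
Wdr5 (chr2:27514897-27515196, plus strand): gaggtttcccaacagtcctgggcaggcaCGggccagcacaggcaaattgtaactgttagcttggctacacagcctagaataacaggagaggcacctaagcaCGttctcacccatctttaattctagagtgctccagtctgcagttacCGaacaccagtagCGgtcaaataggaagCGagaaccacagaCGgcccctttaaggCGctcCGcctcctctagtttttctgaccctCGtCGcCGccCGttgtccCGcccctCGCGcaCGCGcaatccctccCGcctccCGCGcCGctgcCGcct

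These windows hold 38, 15 and 22 CpG in the order shown. RefSeq windows were matched for 35 of the 41 measured members, 49 windows in all because some genes have several start sites. Their median was 29 CpG per window (range 0 to 49) and 64.3% GC, against 7 CpG and 52.7% GC over all 32851 windows of the same length. Of the 3 printed windows, those of Setdb1 and Wdr5 lie under the members' median CpG count. The nuclear receptor half-site AGGTCA, searched on both strands, was in 5 of the 49 windows (10.2%) and in 16.3% of all windows, and it was in none of the 3 printed here. These shares are not matched for base composition or for the number of windows per gene. A half-site match is a description of letters and not a site of binding.

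Phf19, which encodes a PRC2-associated reader of methylated lysine 36, was the member farthest below control after p/CIP knockdown, at 68.3% of control. Behind it lay a set of smaller values, at 80.8 to 85.6% of control, for the H3K9 methyltransferase Setdb1, the COMPASS core subunits Wdr5 and Rbbp5, the PRC2 partner Mtf2 and the remodeller Ino80. The estimates of the deacetylase and BAF genes lay between -0.03 and 0.08 log2 units from control. In bulk RNA, fewer cells of a type and less RNA per cell cannot be told apart. With both siRNAs together against control, 0 of 41 members passed an adjusted p of 0.05 over all genes in limma, where 0.0702% of all genes were called. At an unadjusted p under 0.05, 6 members were lower and 0 higher (Phf19, Setdb1, Wdr5, Mtf2, Rbbp5 and Ino80). Over all genes 4.86% were lower and 3.86% higher at that threshold, and among the 9969 genes above the median level, where every measured member lies, 7.17% were lower and 3.7% higher. With the replicate number as a block, 9 members were lower at that threshold (the 6 and Eed, Suz12 and Dpy30) and 1, Kmt2a, was higher, against 8.95% and 8.52% of all genes. Among the 9969 genes above the median level, 1364 were lower and 661 higher with the block.

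**Figure D1:**
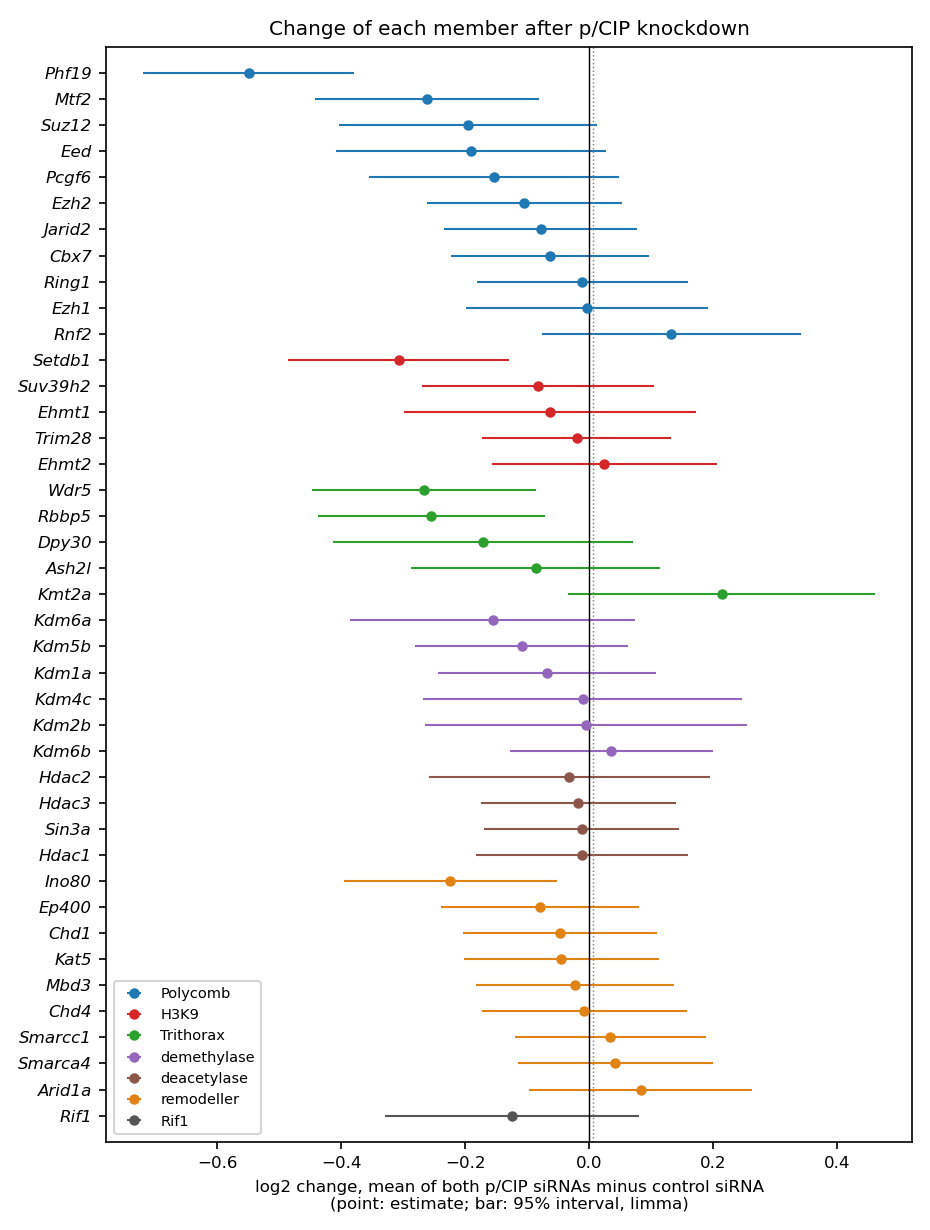
Log2 change of the 41 measured members, mean of both p/CIP siRNAs minus control siRNA (x axis), with limma's 95% interval as a bar, by group (colour); the dotted line is the median of all genes. The interval lies below 0 for Phf19, Mtf2, Setdb1, Wdr5, Rbbp5 and Ino80, and includes 0 for the other 35 members.

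In all, 34 of the 41 members had estimates below control (82.9%), against 47.7% of all genes and 61.9% of genes above the median level. The members' median level was 11.2, against 9.65 for genes above the median level, so neither share is matched to the members for level. Their median change was -0.06, against 0.01 over all genes and -0.03 over genes above the median level. The members' median was -0.02 after quantile normalization or cyclic loess, -0.0246 without control replicate 1 and -0.0996 without control replicate 2. On all 4 knockdown arrays 11 members read lower than on both control arrays and 0 read higher. Over all genes 10.1% were lower and 8.83% higher in this way, and 15.4% and 8.18% of genes above the median level. The 34 depends on scaling: after quantile normalization or cyclic loess 24 of 41 lay below control, and the 10 members that changed sign under each were all within 0.03 of control in the deposited values. The 6 members at an unadjusted p under 0.05 were the same 6 under both scalings. The share of all genes at that threshold under those scalings is not given here. Without siRNA 1 replicate 2, 26 of 41 members lay below control, with a median of -0.05, against -0.01 over all genes. Which members reached an unadjusted p under 0.05 depended on the arrays kept. Without control replicate 1 the changes of the 6 members ran from -0.50 (Phf19) to -0.19 (Rbbp5).

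PRC2 was represented among the members by 7 genes, which ranged from Phf19, the lowest of all members, to Ezh1, which lay at control. All 7 had estimates below control (median -0.19), where 61.9% of genes above the median level did. On every knockdown array 5 of the 7 read lower than on both controls, as did 15.4% of genes above the median level. After quantile normalization or cyclic loess 6 of the 7 lay below, with Ezh1 above. Without siRNA 1 replicate 2 these counts were 6 below (median -0.14) and 5 without overlap. Over all genes, not only those above the median level, 13.7% were then lower without overlap. Shares among genes above the median level without that array are not given here. Of the 7 other PRC2 genes measured, 3 lay below control and 4 above, with a median of 0.01. The lower values thus hold for the member genes and not for PRC2 genes in general.

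Phf19 stood at 8.58 and 8.48 in the control group, 7.85 and 7.94 under siRNA 1, and 8.07 and 8.06 under siRNA 2. All 4 knockdown arrays were below both controls, those of siRNA 1 lowest, and the groups did not overlap. The log2 change was -0.55 (standard error 0.0716, 95% interval -0.72 to -0.38, unadjusted p = 1.35e-04, limma adjusted p = 0.115). With the replicate number as a block it fell by the same amount and passed (adjusted p = 0.0471), as did 0.341% of all genes. Over the 14 alternatives tried the change ran from -0.60 to -0.50 and the adjusted p from 0.0388 to 1.00, the last without control replicate 1.

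Mtf2, which like Phf19 binds PRC2 and helps to bring it to CpG islands, stood at 12.19 and 12.07 in the control group, 11.87 and 11.75 under siRNA 1, and 11.95 and 11.92 under siRNA 2. Its groups did not overlap either, and the change was -0.26 (standard error 0.076, adjusted p = 0.385). Eed, the PRC2 subunit that binds the methylated lysine 27 product, read 11.37 and 11.20 on controls and 10.95 to 11.17 on the knockdown arrays, all lower, with siRNA 1 replicate 2 lowest. Its change was -0.19 (standard error 0.0916, adjusted p = 0.61). As each array was left out the change ran from -0.275 to -0.107, the smallest without control replicate 1. The second Eed probe set read only 5.10 to 5.54, under the median gene of 7.81. It gave -0.16 (standard error 0.119), with groups that overlapped.

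Suz12, the scaffold subunit, stood at 12.06 and 11.92 in the control group, 11.74 and 11.53 under siRNA 1, and 11.97 and 11.95 under siRNA 2, so that only the siRNA 1 arrays lay below both controls. The change was -0.36 with siRNA 1 and -0.04 with siRNA 2, and the direct test between the siRNAs did not pass (limma adjusted p = 0.674). The catalytic subunits stood closer to control: Ezh2 was at 93.0% of control (95% interval 83.4 to 104%) and its paralog Ezh1 at 99.7% (87.1 to 114%). Jarid2, a PRC2 cofactor that helps to place the complex, was at 94.7%. Ezh2 and Jarid2 read lower on all 4 knockdown arrays than on both controls, by 0.10 and 0.08 on average, with limma adjusted p-values of 0.682 and 0.753.

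**Figure D2:**
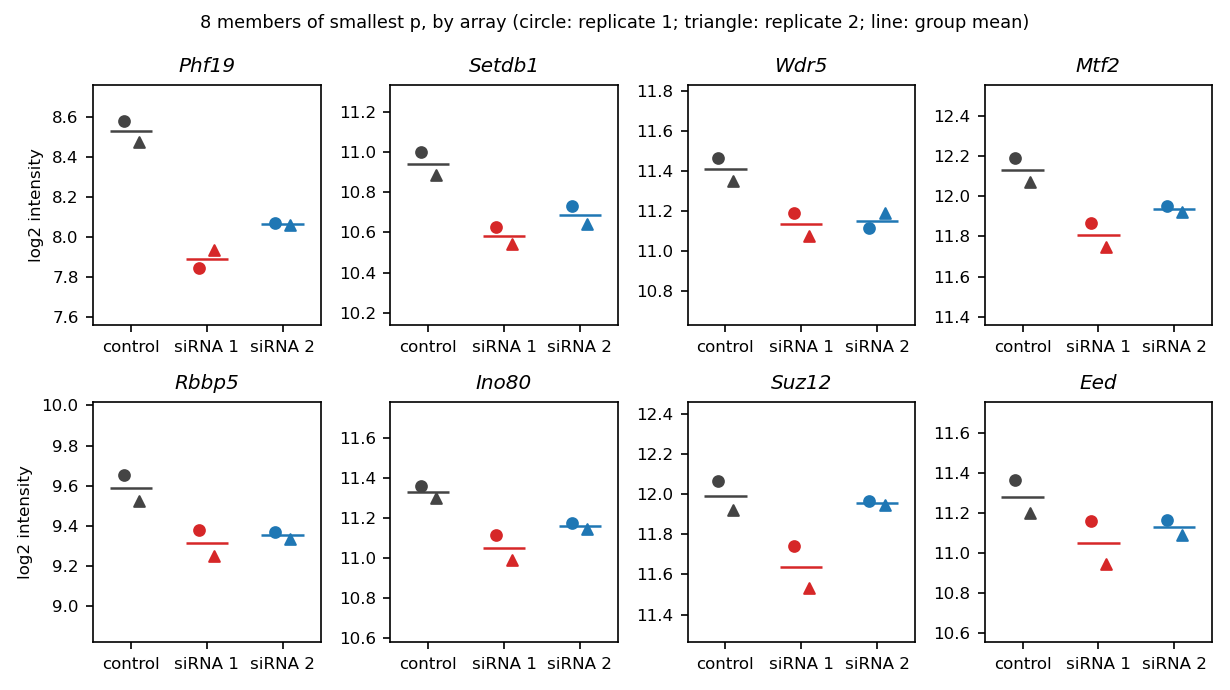
Log2 intensity (y axis, the same span of 1.2 units in each panel) of the 8 members with the smallest p, by group, with a circle for replicate 1, a triangle for replicate 2 and a line at the group mean. Phf19 separates most from control; Suz12 is low with siRNA 1 and within the control range with siRNA 2.

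The 4 PRC1 members differed in direction. Pcgf6, which defines the variant PRC1.6 complex, read 11.98 and 11.94 on controls and 11.64 to 11.87 on knockdown arrays, all of them lower (change -0.15, adjusted p = 0.655, and -0.0948 without siRNA 1 replicate 2). Rnf2, the main ubiquitin ligase of PRC1, was at 110% of control (94.9 to 127%), while its paralog Ring1 was at 99.3% (88.2 to 112%). Cbx7, the chromodomain subunit typical of stem cell PRC1, stood at 11.60 and 11.52 in the control group, 11.61 and 11.63 under siRNA 1, and 11.40 and 11.35 under siRNA 2. The siRNA 1 arrays were at or above the controls and the siRNA 2 arrays below them.

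Among the H3K9 genes Setdb1 stood apart from the rest. This methyltransferase, which silences endogenous retroviruses with the corepressor Trim28, stood at 11.00 and 10.88 in the control group, 10.62 and 10.54 under siRNA 1, and 10.73 and 10.64 under siRNA 2. The groups did not overlap, and the change was -0.31 (standard error 0.0752, 95% interval -0.49 to -0.13, adjusted p = 0.292). Trim28 itself read 13.20 and 13.17 on controls and 13.15 to 13.17 on knockdown arrays, at 98.6% of control (88.7 to 110%). The euchromatic methyltransferases Ehmt1 and Ehmt2 were at 95.7% and 102%, and Suv39h2, which acts at heterochromatin, at 94.4%, each with groups that overlapped.

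In the Trithorax group, the shared COMPASS core and the methyltransferase Kmt2a had estimates on opposite sides of control. Wdr5, the propeller protein of the core, stood at 11.46 and 11.35 in the control group, 11.19 and 11.08 under siRNA 1, and 11.11 and 11.19 under siRNA 2. Rbbp5, its partner, stood at 9.65 and 9.52 in the control group, 9.38 and 9.25 under siRNA 1, and 9.37 and 9.34 under siRNA 2. In both genes every knockdown array was below both controls, and the siRNAs gave nearly equal changes (Wdr5 -0.28 and -0.26, Rbbp5 -0.27 and -0.24). Pooled, Wdr5 was at -0.27 (standard error 0.0762, adjusted p = 0.375) and Rbbp5 at -0.25 (standard error 0.0771, adjusted p = 0.401).

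Dpy30, a small core subunit, was at -0.17 and Ash2l, the core subunit that activates the methyltransferase, at -0.09, with groups that overlapped. Kmt2a (Mll1) stood at 9.57 and 9.80 in the control group, 9.80 and 10.00 under siRNA 1, and 9.81 and 9.98 under siRNA 2, a change of 0.21 (95% interval -0.03 to 0.46, adjusted p = 0.615). Its replicate 2 array was higher than its replicate 1 array in each group, and within each replicate number both siRNA arrays were above the control array. With the replicate block its unadjusted p in limma was 0.00786 and its adjusted p 0.15. The median of the 5 members was -0.17, and it ran from -0.26 to -0.08 as each array was left out.

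None of the 6 demethylases separated from control on all 4 arrays. Kdm6a, which removes methyl groups from lysine 27, stood at 10.95 and 10.88 in the control group, 10.82 and 10.53 under siRNA 1, and 10.89 and 10.80 under siRNA 2. The low value was that of siRNA 1 replicate 2, and the change was -0.16 (adjusted p = 0.679), or -0.0834 without that array. Its paralog Kdm6b was at 103% of control (91.5 to 115%). Kdm5b, a lysine 4 demethylase, was at 92.7%, Kdm1a (Lsd1) at 95.4%, Kdm4c, which acts on lysine 9, at 99.3%, and Kdm2b, the CpG-binding subunit of a variant PRC1, at 99.6%.

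The deacetylase genes lay close to control. Hdac1 read 12.50 and 12.39 on control arrays and 12.35 to 12.49 on knockdown arrays, at 99.2% of control (88.1 to 112%), and its second probe set gave a change of -0.00. Its paralog Hdac2 was at 97.8% (83.6 to 114%), Hdac3, the deacetylase of the nuclear receptor corepressors, at 98.8% (88.6 to 110%), and Sin3a, the scaffold that holds Hdac1 and Hdac2, at 99.2% (88.9 to 111%). All 4 estimates were below control in the deposited values and above it after quantile normalization or cyclic loess, so no direction was read from them. Of the 4 intervals, that of Hdac2 was the widest.

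Of the 9 remodeller genes, Ino80 was lowest. The ATPase of the INO80 complex stood at 11.36 and 11.30 in the control group, 11.11 and 10.99 under siRNA 1, and 11.17 and 11.14 under siRNA 2. All 4 knockdown arrays were below both controls, and the change was -0.22 (standard error 0.0723, adjusted p = 0.442). Kat5, the TIP60 acetyltransferase, also read lower on all 4 arrays, by far less (-0.04), and Ep400, its ATPase partner, was at -0.08.

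The 3 BAF members, the ATPase Smarca4 (Brg1), Arid1a and Smarcc1, had estimates of 0.04, 0.08 and 0.03 above control, and their intervals included 0. Arid1a read 12.13 and 12.30 on the control arrays and 12.27 to 12.31 on the knockdown arrays, so its estimate followed the lower control array; without control replicate 1 it was -0.00. In the NuRD and CHD group, the ATPase Chd4 was at -0.01, the methyl-CpG-binding family member Mbd3 at -0.02, and Chd1, a reader of methylated lysine 4, at -0.05. Rif1, which sets replication timing, stood at 11.44 and 11.41 in the control group, 11.31 and 11.08 under siRNA 1, and 11.44 and 11.37 under siRNA 2 (change -0.12, adjusted p = 0.704, and -0.0656 without siRNA 1 replicate 2).

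**Figure D3:**
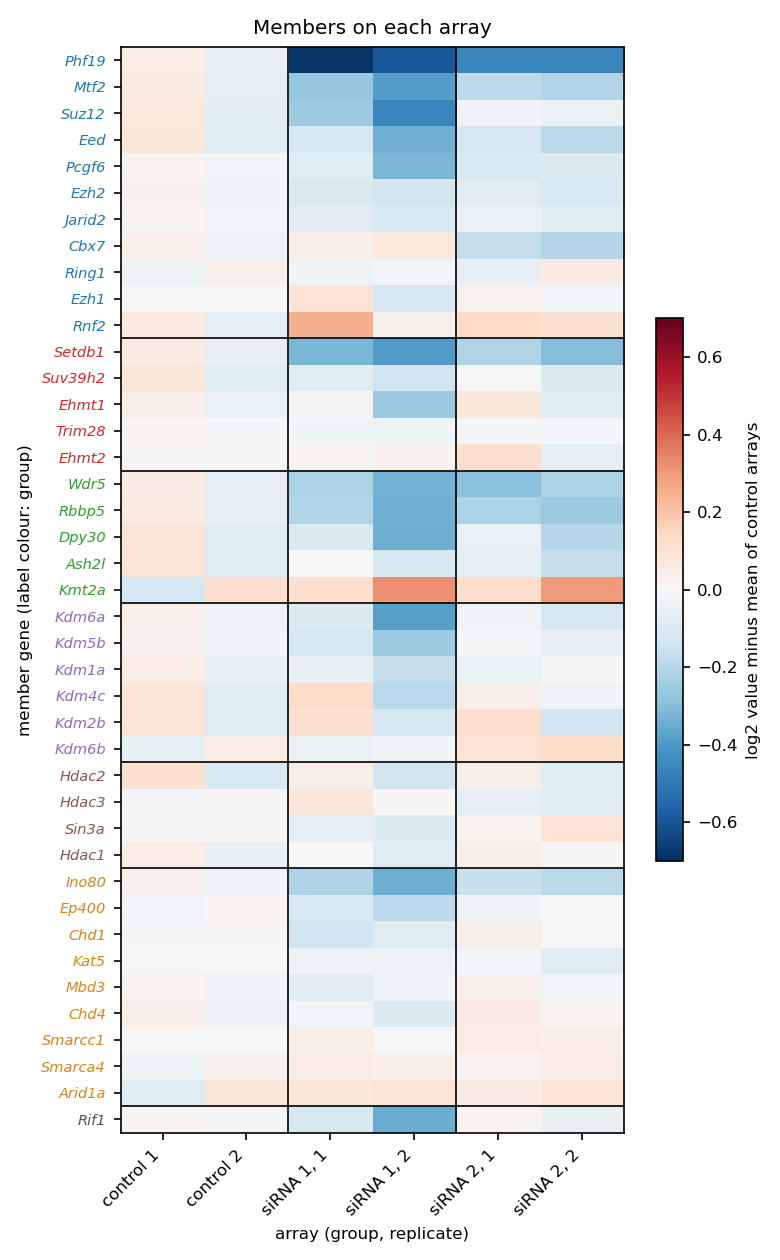
Log2 value of each measured member on each of the 6 arrays minus the mean of the control arrays (colour, from -0.7 to 0.7), with genes in rows, from the top Polycomb, H3K9, Trithorax, demethylase, deacetylase and remodeller genes and Rif1. Phf19, Setdb1, Wdr5, Rbbp5 and Ino80 are low in all 4 knockdown columns, and 25 of the 41 members have their lowest value on siRNA 1 replicate 2.

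Each siRNA was then compared with the same 2 control arrays. With siRNA 1, 0 of 41 members passed over all genes, where 0.0702% of genes were called. At an unadjusted p under 0.05, 7 members were lower (the 6 above and Suz12) and 0 higher. Of all genes 6.37% were lower, and of genes above the median level 9.93%. Phf19 was at -0.64 with an adjusted p of 0.08, and at 0.0317 with the replicate block, which called 1.21% of all genes. With siRNA 2, 0 of 41 passed, and 0% of all genes did. Ncoa3 itself, at 35.6% of control with siRNA 2, did not pass there either (limma adjusted p = 0.0742). The 0 without the block thus says little about the members. With the replicate block Ncoa3 passed (limma adjusted p = 0.048), and 0 of 41 members did. Without the block, 5 members were lower with siRNA 2 at an unadjusted p under 0.05 (Phf19, Setdb1, Wdr5, Rbbp5 and Cbx7). Of all genes 2.99% were lower, and of genes above the median level 3.96%. Phf19 was at -0.46 with siRNA 2 (adjusted p = 0.332).

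The siRNAs were also tested directly against each other. Again 0 of 41 members passed, and 0% of all genes did. At an unadjusted p under 0.05, Suz12 (siRNA 2 higher by 0.32, 95% interval 0.08 to 0.56, adjusted p = 0.674) and Cbx7 (siRNA 2 minus siRNA 1 -0.24, 95% interval -0.43 to -0.06, adjusted p = 0.675) stood out, 2 of 41 members, a share below the 6.9% of all genes. Next came Rif1 (0.21, adjusted p = 0.73) and Phf19 (0.17, adjusted p = 0.734). For Wdr5 and Rbbp5 the difference was 0.02 and 0.04, with intervals of -0.19 to 0.23 and -0.17 to 0.25. Of the 41 members, 31 were higher with siRNA 2 than with siRNA 1 (75.6%, median 0.06), against 41.9% of all genes (median -0.03) and 57.0% of genes above the median level (median 0.02). On siRNA 1 replicate 2, 25 of 41 members had their lowest value of the 6 arrays (61.0%), against 23.8% of all genes and 38.8% of genes above the median level. These gene sets were not matched to the members for level.

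The groups of members differed most on that same array. Over the 11 Polycomb members the median deviation from the control mean was -0.09 and -0.13 on the siRNA 1 arrays and -0.08 and -0.10 on those of siRNA 2, with control arrays at 0.04 and -0.04. For the 5 Trithorax members it was -0.10 and -0.33 with siRNA 1 and -0.07 and -0.20 with siRNA 2, against 0.06 and -0.06. For the 9 remodellers it stayed between -0.04 and 0.03 on every knockdown array. Polycomb was the group in which all 4 knockdown arrays lay below both controls by the widest margin. The Trithorax arrays also lay below both, and their replicates spread more widely.

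**Figure D4:**
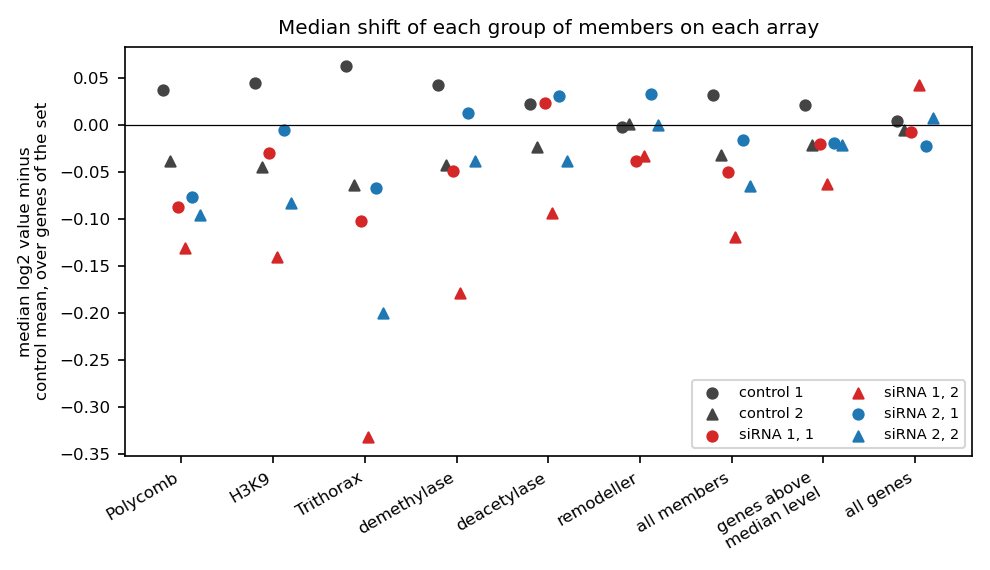
Median, over the genes of each set, of the log2 value minus the mean of the control arrays (y axis), for the 6 groups of members, all 41 members, genes above the median level and all genes; each point is 1 array. The Polycomb arrays lie at -0.08 to -0.13 after knockdown, the remodeller arrays around 0, and siRNA 1 replicate 2 is the lowest point of 5 of the 6 groups.

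Of 165 other subunits of the same complexes, 160 were measured, and 0 passed over all genes with both siRNAs. At an unadjusted p under 0.05, 12 were lower and 6 higher (7.5% and 3.75%), shares near the 7.17% and 3.7% of genes above the median level, and their median change was -0.02. The 6 of smallest p were all lower. Scmh1, a PRC1-associated Polycomb protein, stood at 10.50 and 10.55 in the control group, 9.88 and 10.01 under siRNA 1, and 9.90 and 10.03 under siRNA 2. Its level was 67.5% of control (change -0.57, standard error 0.0786, adjusted p = 0.126), and it fell with the replicate block (adjusted p = 0.0269). Epop, a PRC2-associated protein that links it to elongin, read 11.74 and 11.63 on controls and 11.12 to 11.28 on knockdown arrays (71.7% of control, adjusted p = 0.16, and 0.0504 with the block).

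The others were Rcor2, a corepressor partner of Kdm1a (-0.37), the deacetylase Sirt1 (-0.44), the imprint-guarding zinc finger protein Zfp57, which works with Trim28 (-0.26), and Aebp2, a PRC2 cofactor (-0.27). These 4 had adjusted p-values of 0.222 to 0.368. For siRNA 1 with the block, Scmh1, Epop, Sirt1 and the heterochromatin protein gene Cbx3 fell (adjusted p = 0.0304, 0.0439, 0.0439 and 0.0391), 4 of 160 where 1.21% of all genes were called. Of the 9969 genes above the median level, that fit called 162 lower and 39 higher. Cbx3, chosen after its values were seen, stood at 11.29 and 11.28 in the control group, 10.76 and 10.46 under siRNA 1, and 11.41 and 11.36 under siRNA 2. The difference between the siRNAs was 0.78 (95% interval 0.52 to 1.04, adjusted p = 0.241). By complex, the other H3K9 genes had 11 of 13 below control (median -0.08) and the other INO80 and TIP60 genes 20 of 27 (median -0.06). The other PRC2 genes had 3 of 7 below (median 0.01), the other PRC1 genes 9 of 18 (median -0.00) and the other BAF genes 8 of 24 (median 0.01). Of all genes 47.7% lay below control, and of genes above the median level 61.9%.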

How the data were processed

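The deposited values are log2 intensities for 35556 probe sets on 6 arrays. Per the submitters' processing notes the authors used Partek; the sources used here do not give its version, background correction or normalization. Their range of 2.69 to 14.6 gave the log base. GEO's platform annotation named 21789 probe sets with 1 symbol and 1621 with several (left unnamed); 12146 were not listed. The brightest probe set stood for each of 999 genes with several. All 19938 genes were fitted with limma 3.58.1 in R 4.3.3 (lmFit and eBayes, 1 coefficient per group, no filter; 3 residual and 3.84 prior degrees of freedom), tests two-sided, with Benjamini-Hochberg adjustment over all genes and a threshold of 0.05. The script was tested on simulated data with independent noise and changes larger than that of any member. The number of arrays limits the precision: the median half-width of a member's 95% interval was 0.18.

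Members and lists were chosen with earlier results of these data known. Named genes were the 8 members of smallest p for both siRNAs, the 4 for the difference between siRNAs, the first of each role group, 6 paralog pairs, and the 6 other subunits of smallest p. Deviations of same-numbered arrays from their group means correlated at 0.464, 0.407 and 0.461, all over 0.1, which counts as paired. Values printed are from the fit without a block. The fit with the replicate number as a block was an alternative, given where it changes a call among members or other subunits. It also changed calls elsewhere: the stem cell markers Klf4 (-0.78) and Esrrb (-0.50) passed in limma with the block (adjusted p = 0.018 and 0.0386). Without it they did not (0.134 and 0.186). The pairing comes from the data, not the labels, and with 2 arrays per group this check is weak.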

Additional observations from a re-analysis of the deposited data

Results flagged for a closer look

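For 3 members the arrays of one siRNA lay above both control arrays and those of the other below both: Cbx7, Hdac3 and Sin3a. This is 7.32% of the members, against 2.52% of all genes. The log2 difference, siRNA 2 minus siRNA 1, was -0.24 for Cbx7 (unadjusted p = 0.017), -0.12 for Hdac3 (0.164) and 0.14 for Sin3a (0.111). In limma's direct test of siRNA 2 against siRNA 1 the adjusted p was 0.675, 0.753 and 0.746, so none of the 3 differences passed. The lower siRNA 1 array exceeded the higher control array by under 0.01 for both Hdac3 (12.036 against 12.0358) and Cbx7 (11.6058 against 11.5989).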

How the results depend on the processing

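Over 14 alternatives the signs of Phf19, Setdb1, Wdr5, Mtf2, Rbbp5 and Ino80 held. For both siRNAs together the count of members called was 1, Phf19, with the replicate block, with genes above the median level only, or with eBayes trend and robust options, and 0 otherwise. For siRNA 1 it was 1 in those settings and after cyclic loess, and 0 to 1 as each array was left out. Other subunits called were 1 with the replicate block, 1 with genes above the median level only and 2 with trend and robust options. With the block, 0.341% of all genes were called for both siRNAs together. For the other alternatives no share of all genes is given here, so those counts have no background beside them. Among members the block changed no other call for both siRNAs together. Members lower at an unadjusted p under 0.05 were 10 with trend and robust options and 1 to 12 as each array was left out, a result added after seeing the data. The median Polycomb change, -0.10, became -0.0549 under quantile normalization and -0.0634 under cyclic loess. The remodeller median, -0.02, was 0.0179 and 0.0183 under these and ran from -0.0432 to -0.0014 as each array was left out; the demethylase median ran from -0.11 to -0.0037. Hdac2, at -0.03, was at 0.0188 under quantile normalization, 0.0089 under cyclic loess, and from -0.137 to 0.0731 as each array was left out (0.01 without siRNA 1 replicate 2). Arid1a ran from -0.0014 to 0.17 as each array was left out. The cause of these shifts was not tested. With 2 arrays per group, leaving out 1 leaves a lone array whose spread is assumed equal to that of the other groups.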
